A study of Mus musculus with 19 samples.

Results

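The Slc25 genes encode the mitochondrial carriers, a family of small membrane proteins that move metabolites across the inner mitochondrial membrane. Every gene whose symbol begins with Slc25a was taken, and its level was the median of the probe sets that the array annotation ties to that symbol alone. This gave 44 carriers, with 93 probe sets, among the 18193 genes measured. Carriers without such a probe set were not analysed here. The pseudogene Slc25a5-ps is a copy of Slc25a5, and part of the Slc25a5 signal may come from it.

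The samples were dendrites cut with glass pipettes from cultured mouse hippocampal neurons, pooled and hybridised to Affymetrix mouse arrays. Balb/c neurons gave 5 pools (2 of 100 dendrites, 1 of 200 and 2 of 400) and C57BL/6 neurons gave 14 (4 of 100, 5 of 200 and 5 of 400). All neurons, of both inbred strains, were taken at E18 and grown untreated for 14 days, and their RNA was amplified over several rounds to reach the amount needed for labelling. The study compared dendritic RNA between strains and states that its pools can hold some axonal RNA, since axons and dendrites could not be told apart by shape. Pools are named as biological replicates without word on whether cultures or animals differed between them, so the p-values here measure the spread between pools, which may be technical. In pooled dendrites, fewer dendrites of one neuron type and less RNA per dendrite cannot be told apart.

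Several array properties moved with strain. The deposited numbers carried up to 14 decimals on 9 arrays, which were all 5 Balb/c arrays and the C57BL/6 pools 100-1, 100-2, 200-1 and 400-1 (number of dendrites, then replicate), and up to 9 decimals on the other 10, all C57BL/6. The sources used here do not give the meaning of the number format. The 3' minus 5' probe difference of Actb, a measure of how far amplified RNA is shortened, ran from -0.69 to 2.27 in Balb/c pools and from 1.17 to 5.56 in C57BL/6 pools. C57BL/6 200-1 (1.17) and 400-1 (1.65) lay within the Balb/c range. For Gapdh the same measure ran from 1.48 to 4.72 in Balb/c pools and from 2.39 to 5.00 in C57BL/6 pools. As a description, the mean correlation over all genes was 0.678 between Balb/c 200-1 and the rest of its strain and 0.782 between Balb/c 200-1 and C57BL/6 pools. For C57BL/6 200-1 it was 0.781 to Balb/c pools and 0.757 to the rest of C57BL/6. Balb/c 100-2 and 400-1 held the fewest distinct values, 1569 and 2052, against 2603 to 5556 in C57BL/6 pools. The part of these properties in the differences below was not tested beyond the refits given beside them.

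The study describes the collected cells as pyramidal neurons. Of the 10 markers of such neurons, 2 fell and 1 rose in Balb/c, and the mean level of the list ran from 7.52 to 9.11 in Balb/c pools and from 8.35 to 9.02 in C57BL/6 pools. Those that fell were Map2 (6.72 ± 0.90 in Balb/c, SD, n = 5, and 7.95 ± 0.33 in C57BL/6, SD, n = 14) and Neurod6 (6.97 ± 2.32 and 9.20 ± 1.06). Camk2a rose (7.65 ± 0.47 and 6.96 ± 0.29). The other 7 did not pass, among them Nrgn, a calmodulin-binding protein of excitatory neurons (13.32 ± 0.21 and 13.03 ± 0.23). The median difference of the list was -0.86 relative to that of all genes. Gad1, which makes the inhibitory transmitter GABA, stood at 8.42 ± 1.12 in Balb/c and 10.60 ± 0.44 in C57BL/6 (limma, adjusted p = 0.000185). Of 6 interneuron markers 2 were lower and 1 higher, with list means of 7.24 to 7.69 in Balb/c pools and 7.26 to 8.22 in C57BL/6 pools. Relative to the median gene, Gad1 gave -2.39 and Sst -1.52, while Pvalb rose by 1.21. Gad2, Slc32a1 and Vip did not pass. Of 10 astrocyte markers 2 were lower and 0 higher (6.34 to 7.86 in Balb/c, 6.58 to 7.77 in C57BL/6), of 9 measured oligodendrocyte markers 0 were lower and 3 higher (6.48 to 6.96 in Balb/c, 6.24 to 6.67 in C57BL/6), and of 10 microglia markers 0 were lower and 4 higher (6.49 to 6.96 in Balb/c, 5.63 to 6.59 in C57BL/6). The median of all probe sets lay between 6.62 and 6.95 on the 19 arrays, and Gfap, which defines astrocytes, stood at 6.34 ± 0.88 in Balb/c and 6.03 ± 0.72 in C57BL/6. Gfap did not pass, and the 2 lower astrocyte markers were Gja1 (-1.81) and Aldoc (-1.70). By the same test 11.4% of all genes were lower and 21.1% higher in Balb/c. The part of these cell types in the carrier differences was not tested.

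Mitochondria enter dendrites and supply the ATP that synapses spend on ion pumping and vesicle cycling. The carriers set what crosses the inner membrane: the ADP/ATP and phosphate carriers feed ATP synthase and export its product, the aspartate/glutamate and oxoglutarate carriers run the malate-aspartate shuttle that brings cytosolic reducing power inside, and others bring in cofactors, nucleotides, iron and fatty acids. The carriers are encoded in the nucleus and imported into mitochondria after translation.

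The main comparison asked which carriers differ between Balb/c and C57BL/6 dendrites. Each difference is the Balb/c mean minus the C57BL/6 mean of log2 values. Balb/c exceeded C57BL/6 by 0.22 at the median gene, and this shift was taken off every difference printed, while limma tests with Benjamini-Hochberg adjustment over all 18193 genes used the values as deposited. Of the 44 carriers, 7 were lower in Balb/c (15.9%), against 11.4% of all genes, and 16 were higher (36.4%), against 21.1% of all genes. At the shares of all genes, 5.01 of the 44 would be lower and 9.28 higher. The other 21 did not pass the adjusted threshold of 0.05. The C57BL/6 mean lay below the lowest array median (6.62) for 7 of the 16 higher carriers and 1 of the 7 lower ones. A stricter guide to dim signal was 9.60, the 95th percentile of the means of 39 olfactory receptor genes. Only 2 carriers, Slc25a4 and the uncalled Slc25a14, had a mean over all arrays above it, as did 971 of all genes. None of the 16 higher carriers did. The median carrier lay 0.08 above the median gene. At the study's threshold of 0.001, 2 carriers were lower, Slc25a4 and Slc25a5, against a background of 2.35%, and 1 was higher, Slc25a2, against 1.5%. With the methods' t-test at that threshold, 1 was lower (Slc25a4) and 0 were higher, and the adjusted p was 0.00158 for Slc25a5 and 0.00162 for Slc25a2. With quantile normalization 13.9% of all genes were lower and 15.2% higher, and 8 and 12 carriers. With the brightest probe set of each gene 14.1% of all genes were lower and 20.6% higher, and 7 and 9 carriers. The ADP/ATP carrier Slc25a4 had the largest difference of the family.

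**Figure D1:**
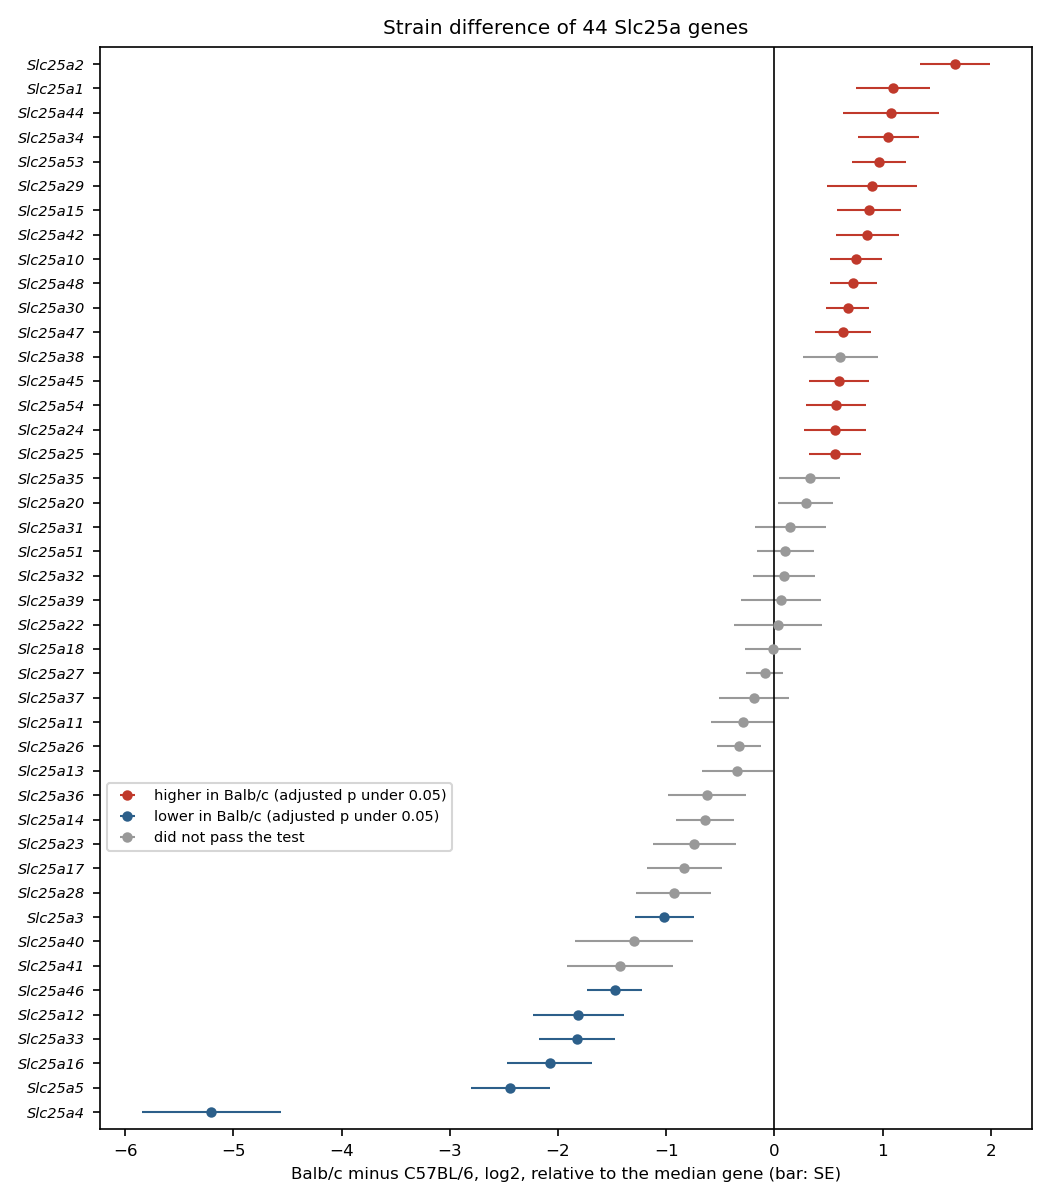
Strain difference of each of the 44 Slc25a genes (Balb/c minus C57BL/6, log2, relative to the median gene), with bars for 1 SE and colours for the limma call. Slc25a4 lies at -5.20, apart from the other 43 genes, which run from -2.44 to 1.67.

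Slc25a4 and Slc25a5, which both exchange ADP for ATP, fell furthest in the family. Of 8 carriers of adenine nucleotides and phosphate, 3 were lower (Slc25a4, Slc25a5 and Slc25a3), 2 were higher (Slc25a24 and Slc25a25) and 3 did not pass. The median difference over the 8 was -0.88. The 250 bases before the RefSeq start of the 3 genes that fell are printed here from RefSeq (GRCm38.p6) because these carriers of ADP, ATP and phosphate were all called lower; capitals mark matches to the GC box bound by Sp1 (GGGCGG), the core bound by ETS factors such as GABPA (CCGGAAG) and the NRF1 element (GCGC, NN, GCGC), each searched on both strands, with no overlap between matches.
Slc25a4, chr8:46211063-46211312, minus strand: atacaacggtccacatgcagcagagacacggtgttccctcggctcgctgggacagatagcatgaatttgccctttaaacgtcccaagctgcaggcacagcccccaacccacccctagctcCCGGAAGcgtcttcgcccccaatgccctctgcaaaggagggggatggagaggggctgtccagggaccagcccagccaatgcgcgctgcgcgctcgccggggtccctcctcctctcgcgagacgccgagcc
Slc25a5, chrX:36795347-36795596, plus strand: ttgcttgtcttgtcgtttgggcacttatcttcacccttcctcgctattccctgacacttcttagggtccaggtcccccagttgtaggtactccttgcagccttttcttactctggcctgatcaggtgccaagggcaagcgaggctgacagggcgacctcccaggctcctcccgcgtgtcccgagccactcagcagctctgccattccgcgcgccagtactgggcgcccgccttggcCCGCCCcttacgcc
Slc25a3, chr10:91123968-91124217, minus strand: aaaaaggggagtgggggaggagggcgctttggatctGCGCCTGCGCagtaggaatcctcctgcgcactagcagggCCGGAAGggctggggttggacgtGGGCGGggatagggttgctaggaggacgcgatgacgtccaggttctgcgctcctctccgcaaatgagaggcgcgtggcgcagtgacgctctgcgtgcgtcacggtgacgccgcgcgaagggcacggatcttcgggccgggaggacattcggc

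The GC box was common in the family and among all genes, and the other motifs were less common in both. A promoter window was at hand for 34 of the 44 carriers, counted once where any of its start sites held the motif. Among 27025 genes with a window, counted the same way, 35.4% held the GC box, which was in 25 of the 34 carriers, in 3 of 6 that fell and in 11 of 14 that rose. The ETS core was in 6 of the 34, 2 of them among the carriers that fell (Slc25a4 and Slc25a3), against 7.83% of all genes. The NRF1 element was in 2 of the 34, Slc25a3 among them, against 5.64%, and the half-site of the oestrogen-related receptors (AAGGTCA) in 1, against 4.70%. A match is a description of the letters and not of a bound factor.

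Slc25a4 encodes ANT1, the ADP/ATP carrier of heart, muscle and brain. Its level was 5.64 in Balb/c pool 100-1, 6.13 in 100-2, 11.04 in 200-1, 4.87 in 400-1 and 8.77 in 400-2, against a lowest value of 10.30, a median of 12.45 and a highest value of 13.04 over the 14 C57BL/6 pools. The groups overlapped only through Balb/c 200-1, the highest of its strain, and C57BL/6 200-1, the lowest of its own. The means were 7.29 ± 2.56 in Balb/c (SD, n = 5) and 12.28 ± 0.72 in C57BL/6 (SD, n = 14), a difference of -5.20 relative to the median gene (SE 0.64, adjusted p = 5.69e-05). All 5 Balb/c pools lay below the C57BL/6 mean. Leaving out any 1 array kept the call in all 19 refits, with differences from -6.17 to -4.58.

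Slc25a5 encodes ANT2, the ADP/ATP carrier of proliferating and many other cells. Its level was 7.49, 6.24, 9.24, 6.27 and 7.17 in Balb/c pools 100-1, 100-2, 200-1, 400-1 and 400-2, against 8.58, 9.62 and 10.37 as the lowest, median and highest C57BL/6 values. Again Balb/c 200-1 was the pool that reached the C57BL/6 range, and C57BL/6 200-1 was the lowest of its strain. The difference was -2.44 (SE 0.37, adjusted p = 0.000294), with means of 7.28 ± 1.23 in Balb/c and 9.51 ± 0.51 in C57BL/6. It passed in all 19 leave-one-out refits. Without the probe sets that can read several transcripts (names ending in _x_at or _s_at) the difference was -1.04 (adjusted p = 0.0161). With the brightest probe set, itself an _x_at one, it was -0.63 (adjusted p = 0.178).

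Slc25a3, the phosphate carrier, which also brings copper to the matrix, moved less. Balb/c pools 100-1, 100-2, 200-1, 400-1 and 400-2 had levels of 7.79, 8.38, 7.83, 8.32 and 7.58, against 7.91, 8.89 and 9.88 as the lowest, median and highest C57BL/6 levels. The difference was -1.02 (SE 0.27, adjusted p = 0.0274). The groups overlapped at the low end of C57BL/6, which included 200-1 at 7.91 and 400-1 at 8.01. The call was lost in 2 of 19 leave-one-out refits, without Balb/c 100-1 (adjusted p = 0.0613) and without Balb/c 400-2 (adjusted p = 0.0806).

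Slc25a31 encodes ANT4, known for its role in male germ cells of mice. Its levels were 5.05, 5.04, 5.54, 4.61 and 6.19 in the Balb/c pools in the same order, against 3.76, 4.98 and 6.11 in C57BL/6. Both groups covered much the same range, all below the array medians, and the difference of 0.15 (SE 0.33, adjusted p = 0.409) did not pass. Among the ATP-Mg/phosphate carriers, which adjust the adenine nucleotide pool of the matrix, Slc25a25 (0.56, SE 0.24, adjusted p = 0.0185) and Slc25a24 (0.56, SE 0.29, adjusted p = 0.0409) were higher. The call of Slc25a24 held in 8 of 19 leave-one-out refits, with the highest adjusted p of 0.181 without Balb/c 400-1. That of Slc25a25 held in 17 and was lost without Balb/c 100-2 (0.0811) and without Balb/c 400-1. Slc25a23 (-0.74, SE 0.39) and Slc25a41 (-1.42, SE 0.49) did not pass.

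**Figure D2:**
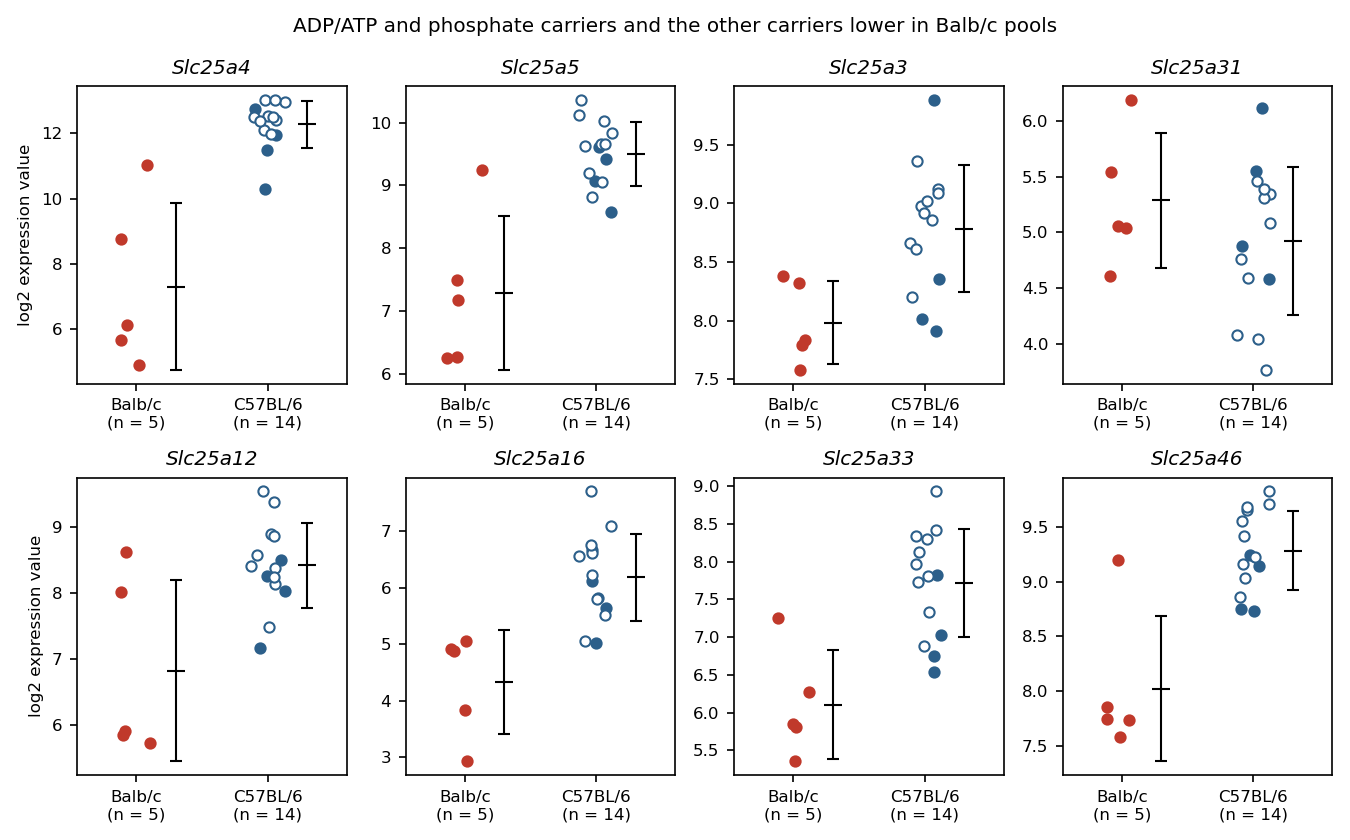
Log2 expression value of 8 carriers in each pool, Balb/c (red) left of C57BL/6 (blue), with filled points for arrays of the long number format, open points for the short one, and the mean with 1 SD in black. For Slc25a4 and Slc25a5 only Balb/c 200-1, at 11.04 and 9.24, reaches the C57BL/6 points, and Slc25a31 shows no called difference.

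The probe sets of these genes did not carry the fall evenly. Over all 45037 non-control probe sets the median was 0.25 higher in Balb/c, 11.6% were lower and 21.3% were higher. Of the 93 probe sets of the carriers 15 were lower, 25 higher and 53 not called. For Slc25a4, the 3 probe sets with high levels gave differences relative to the median probe set of -4.51, -5.03 and -5.67, and the fourth, with levels of 5.90 in Balb/c and 6.22 in C57BL/6, gave -0.57 and did not pass. For Slc25a5, 5 of 8 probe sets were lower and all 8 lay below the median probe set, from -4.06 to -0.70; the brightest of them was among the 3 that did not pass, at 10.45 in Balb/c and 10.90 in C57BL/6. For Slc25a3 the brighter probe set fell by 1.77 (10.38 in Balb/c, 11.91 in C57BL/6) and the dimmer one, at 5.58 in Balb/c and 5.66 in C57BL/6, did not pass.

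Across the 23 carriers with several probe sets, 12 had all of them on one side of the median probe set and 11 had them on both sides. Only Slc25a32, which carries folate and flavin cofactors, had probe sets called both ways, from -2.23 to 0.88. All probe sets were called in the same direction for 2 carriers, Slc25a15 and Slc25a53. A probe set reads one stretch of a transcript, so a gene's median here can rest on stretches that differ.

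**Figure D3:**
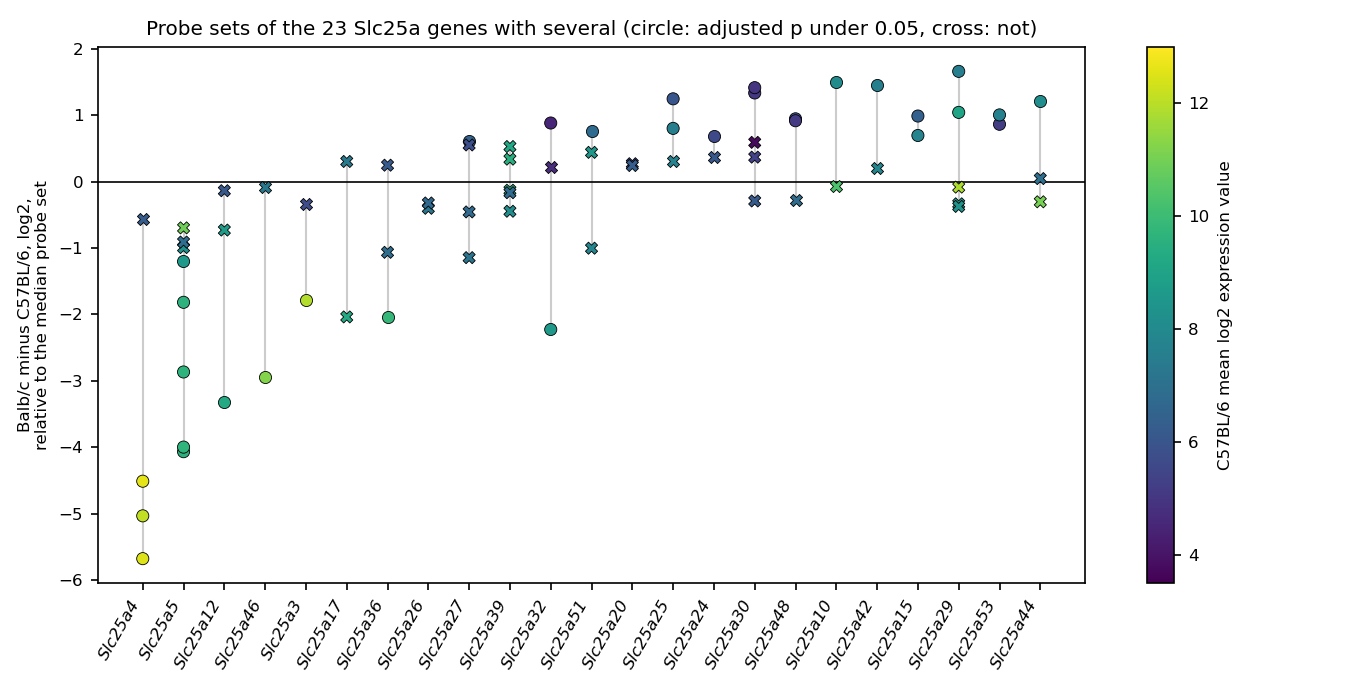
Strain difference of each probe set (Balb/c minus C57BL/6, log2, relative to the median probe set) for the 23 carriers with several, ordered by the gene's difference and coloured by the C57BL/6 mean level, with circles for called and crosses for not called probe sets. Slc25a4 has 3 probe sets below -4 and 1 at -0.57, while Slc25a32 has called probe sets at -2.23 and 0.88.

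Carriers of amino acids moved in both directions. Of 12 carriers of amino acids, carnitine and glutathione, 1 was lower, 4 were higher and 7 did not pass, with a median difference of 0.18. The one that fell was Slc25a12 (aralar), the aspartate/glutamate exchanger of neurons and a step of the malate-aspartate shuttle. Slc25a12 had 8.02, 5.91, 8.62, 5.74 and 5.86 in Balb/c pools 100-1, 100-2, 200-1, 400-1 and 400-2, against 7.17, 8.40 and 9.55 as the lowest, median and highest values in C57BL/6 (difference -1.81, SE 0.42, adjusted p = 0.00677). The Balb/c pools split, with 100-1 and 200-1 inside the C57BL/6 range and the other 3 below it. Only 1 of its 3 probe sets was called, at -3.32, and the brightest gave -0.66 (adjusted p = 0.32). Slc25a13 (citrin), the related exchanger best known from liver, gave -0.34 (SE 0.33, adjusted p = 0.793).

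The ornithine carriers of the urea cycle rose. Slc25a2 had 8.58, 9.33, 7.89, 9.78 and 8.25 in Balb/c pools 100-1, 100-2, 200-1, 400-1 and 400-2, against 6.10, 6.84 and 7.92 in C57BL/6 (lowest, median, highest). Its difference of 1.67 (SE 0.32, adjusted p = 0.000386) was the largest rise in the family. The groups overlapped only through Balb/c 200-1 at 7.89 and C57BL/6 400-1 at 7.92. Slc25a15, the main ornithine/citrulline carrier, rose by 0.87 (SE 0.30, adjusted p = 0.00812), with both probe sets called.

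Slc25a44, which takes branched-chain amino acids into mitochondria of mouse brown fat, and Slc25a29, a carrier of basic amino acids in humans, also passed. Slc25a44 had 10.98, 8.53, 9.56, 9.52 and 9.18 in the Balb/c pools in that order, against 6.78, 8.22 and 10.55 in C57BL/6. All but 1 of the Balb/c pools lay above 9. C57BL/6 pools 400-1 (10.55), 200-1 (9.13), 400-4 (8.83) and 400-2 (8.81) were inside the Balb/c range. The difference was 1.08 (SE 0.44, adjusted p = 0.029). It did not pass without Balb/c 100-1 (adjusted p = 0.12) or without Balb/c 400-1 (0.0599). Of its 3 probe sets 1 was called, and the brightest, at 11.01 in Balb/c and 11.06 in C57BL/6, was not (-0.23, adjusted p = 0.914). Slc25a29 gave 0.90 (SE 0.42, adjusted p = 0.0424), passed in 8 of 19 leave-one-out refits (highest adjusted p of 0.189, without Balb/c 100-1), and had 2 of 5 probe sets called, with -0.012 (adjusted p = 0.499) for the brightest. The glutamate carriers Slc25a22 (0.03, SE 0.41, adjusted p = 0.662) and Slc25a18 (-0.02, SE 0.26, adjusted p = 0.576) did not pass, nor did the carnitine/acylcarnitine carrier Slc25a20 (0.29, SE 0.26, adjusted p = 0.131).

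Among the 3 carriers of di- and tricarboxylates 2 were higher and 0 lower. Slc25a1, which exports citrate for lipid synthesis, had 9.26, 9.53, 9.08, 10.34 and 10.34 in Balb/c pools 100-1, 100-2, 200-1, 400-1 and 400-2, against 7.24, 8.29 and 9.61 in C57BL/6. The 3 lowest Balb/c pools lay within the C57BL/6 range, whose upper end included 200-1 at 9.61 and 400-1 at 9.46. The difference was 1.10 (SE 0.34, adjusted p = 0.00632). Slc25a10, the dicarboxylate carrier, rose by 0.76 (SE 0.24, adjusted p = 0.0049), with 1 of its 2 probe sets called and 0.012 (adjusted p = 0.619) for the brightest. Slc25a11, the oxoglutarate carrier of the malate-aspartate shuttle, gave -0.29 (SE 0.29, adjusted p = 0.864).

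**Figure D4:**
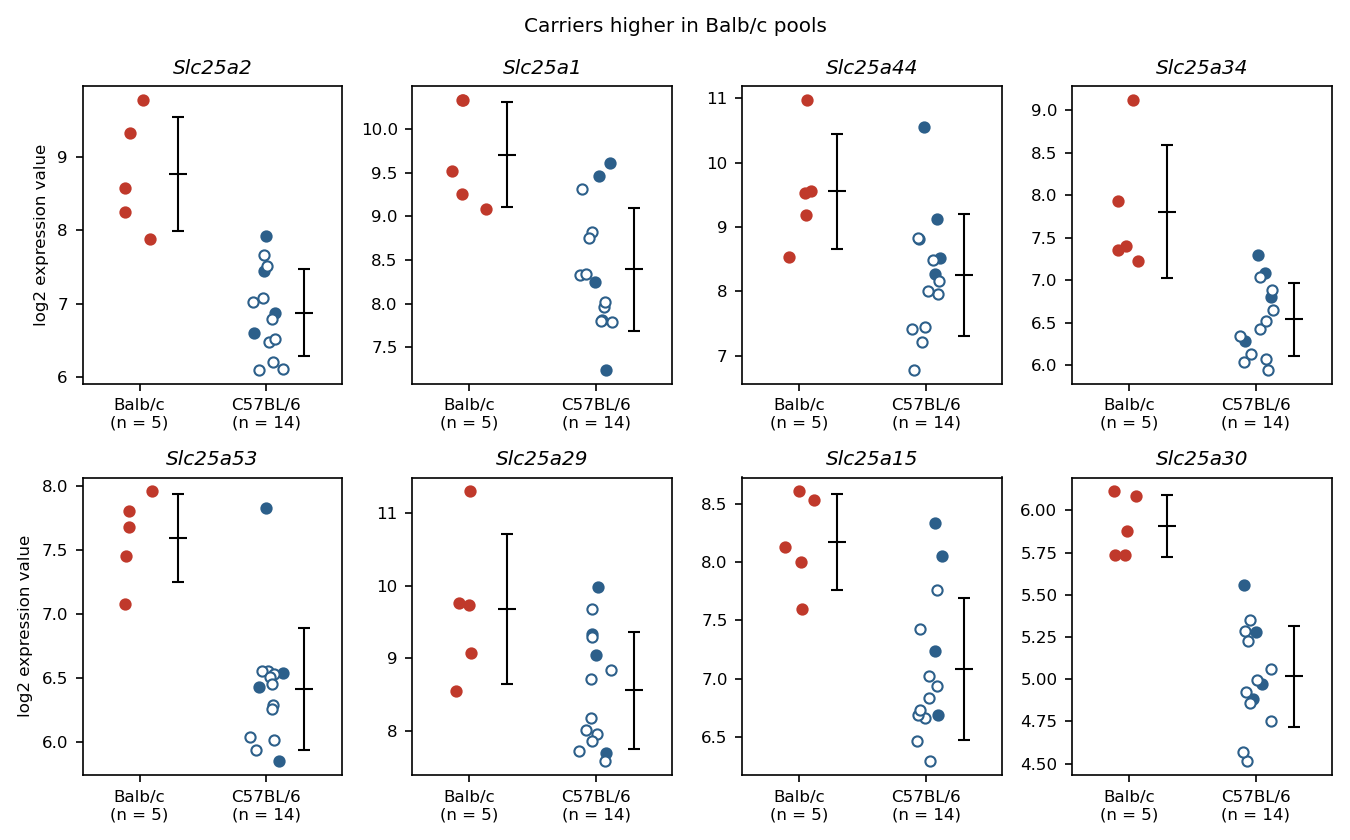
Log2 expression value of 8 carriers that were higher in Balb/c, in each pool, Balb/c (red) left of C57BL/6 (blue), with filled points for arrays of the long number format, open points for the short one, and the mean with 1 SD in black. Slc25a30 is the only one of the 44 carriers whose groups do not overlap, with Balb/c pools from 5.74 to 6.12 and C57BL/6 pools from 4.51 to 5.56.

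Carriers of nucleotides, cofactors and iron mostly did not pass. Of 10, 2 were lower, 1 was higher and 7 were not called, with a median of -0.48. Slc25a33, a pyrimidine nucleotide carrier that serves mitochondrial RNA and DNA synthesis, had 5.84, 7.25, 5.35, 6.27 and 5.81 in Balb/c pools 100-1, 100-2, 200-1, 400-1 and 400-2, against 6.54, 7.81 and 8.93 in C57BL/6. Balb/c 100-2 alone lay inside the C57BL/6 range. The difference was -1.82 (SE 0.35, adjusted p = 0.00214), and unlike Slc25a4 its lowest Balb/c value was that of pool 200-1.

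Slc25a16, a relative of a yeast protein needed for coenzyme A in mitochondria, had 5.05, 2.93, 4.88, 3.84 and 4.92 in the Balb/c pools in that order, against 5.02, 6.17 and 7.71 in C57BL/6. Balb/c 100-1 alone reached the lowest C57BL/6 pool, which was 200-1. The difference was -2.08 (SE 0.39, adjusted p = 0.00162). Both strain means, 4.33 in Balb/c and 6.19 in C57BL/6, lay below the lowest array median (6.62), and the gene has 1 probe set. Slc25a42, which exchanges coenzyme A and adenine nucleotides in humans, rose by 0.86 (SE 0.29, adjusted p = 0.00815), with 1 of 2 probe sets called and 0.27 (adjusted p = 0.429) for the brightest. The mitoferrins, which bring iron in for haem and iron-sulphur clusters, did not pass, with -0.19 (SE 0.32) for Slc25a37 and -0.93 (SE 0.34, adjusted p = 0.114) for Slc25a28. For Slc25a28 the Balb/c pool 200-1 stood at 8.75 and the other 4 Balb/c pools at 6.24 to 6.50. It passed without Balb/c 200-1 (-1.44, adjusted p = 0.00283) and without C57BL/6 200-1 (-1.05, adjusted p = 0.0432).

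Of the 3 carriers related to uncoupling proteins, which are expressed in brain, only Slc25a30 rose (0.68, SE 0.20, adjusted p = 0.00209). It was the one carrier whose groups did not overlap, with 5.74, 5.88, 5.74, 6.09 and 6.12 in the Balb/c pools and 4.51, 4.99 and 5.56 as the lowest, median and highest C57BL/6 values, while 0.797% of all genes were higher in Balb/c without overlap. No carrier was lower without overlap, against 0.418% of genes. Both groups of Slc25a30 lay below the array medians, and 2 of its 5 probe sets were called. With its brightest probe set, an _s_at one, the difference was -0.22 (adjusted p = 0.94). Without _x_at and _s_at probe sets it was 0.76 (adjusted p = 0.000837). Slc25a14 (-0.64, SE 0.27, adjusted p = 0.223) and Slc25a27 (-0.09, SE 0.17, adjusted p = 0.604) did not pass.

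The last 8 are Slc25a46, an outer membrane protein that acts in mitochondrial fission and fusion, and 7 carriers whose substrate is less settled. Slc25a46 fell by 1.48 (SE 0.25, adjusted p = 0.00115). It had 7.74, 7.58, 9.20, 7.74 and 7.85 in Balb/c pools 100-1, 100-2, 200-1, 400-1 and 400-2, against 8.73, 9.23 and 9.83 as the lowest, median and highest C57BL/6 values, and only Balb/c 200-1 lay within the C57BL/6 range. Its brighter probe set gave -2.94 and the dimmer -0.08. Of the other 7 carriers 6 rose (Slc25a34, Slc25a53, Slc25a48, Slc25a47, Slc25a45 and Slc25a54) and Slc25a35 did not pass.

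Slc25a34 had 7.41, 9.13, 7.35, 7.93 and 7.22 in the Balb/c pools in that order, against 5.94, 6.47 and 7.30 in C57BL/6 (1.05, SE 0.28, adjusted p = 0.00243). Balb/c 400-2 was the only Balb/c pool below the highest C57BL/6 pool, which was 400-1. Slc25a53 rose by 0.97 (SE 0.25, adjusted p = 0.00173) and Slc25a48 by 0.73 (SE 0.22, adjusted p = 0.00319). Of the 3 probe sets of Slc25a48, 2 were called, and the brightest gave -0.21 (adjusted p = 0.977). The rise of Slc25a47 was 0.64, and it passed in all 19 leave-one-out refits, while Slc25a45 and Slc25a54 passed in 16, with the highest adjusted p of 0.11 and 0.16 without Balb/c 400-1.

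The spread between pools was larger in Balb/c for 25 of the 44 carriers (56.8%), against 58.7% of all genes, and was largest for Slc25a4.

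The strain fit was repeated with the number format taken into account. With the format as a block, 2 carriers remained lower, Slc25a4 (-4.46, SE 0.81, adjusted p = 0.0182) and Slc25a5 (-2.02, SE 0.47, adjusted p = 0.0418), against 1.28% of all genes, and 0 were higher, against 0.649%; 15 carriers (34.1%) had an unadjusted p under 0.05, against 3914 of all genes (21.5%). Within the 9 arrays of the long format, 0 carriers and 0 genes in all passed, with 10 carriers (22.7%) and 2367 genes at an unadjusted p under 0.05. All Balb/c arrays have the long format, so both refits give the same differences. Those of Slc25a33 (-1.06), Slc25a24 (0.23), Slc25a47 (0.40), Slc25a42 (0.49), Slc25a15 (0.46), Slc25a29 (0.53) and Slc25a44 (0.30) were smaller than with all arrays by more than 1.5 times.

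The strain difference was also taken at one pool size. In pools of 100 dendrites (2 Balb/c, 4 C57BL/6) 4 carriers were lower, against 5.65% of all genes, and 2 were higher, against 5.82%. In pools of 400 (2 Balb/c, 5 C57BL/6) 6 were lower, against 7.34%, and 5 were higher, against 9.66%. Slc25a4 gave -6.64 in pools of 100 and -5.94 in pools of 400, and Slc25a5 gave -3.01 and -3.12. Slc25a12 gave -1.56 in pools of 100, which did not pass (adjusted p = 0.149), and -3.26 in pools of 400 (adjusted p = 0.00228). Slc25a2 rose in both, by 1.85 and 2.10.

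**Figure D5:**
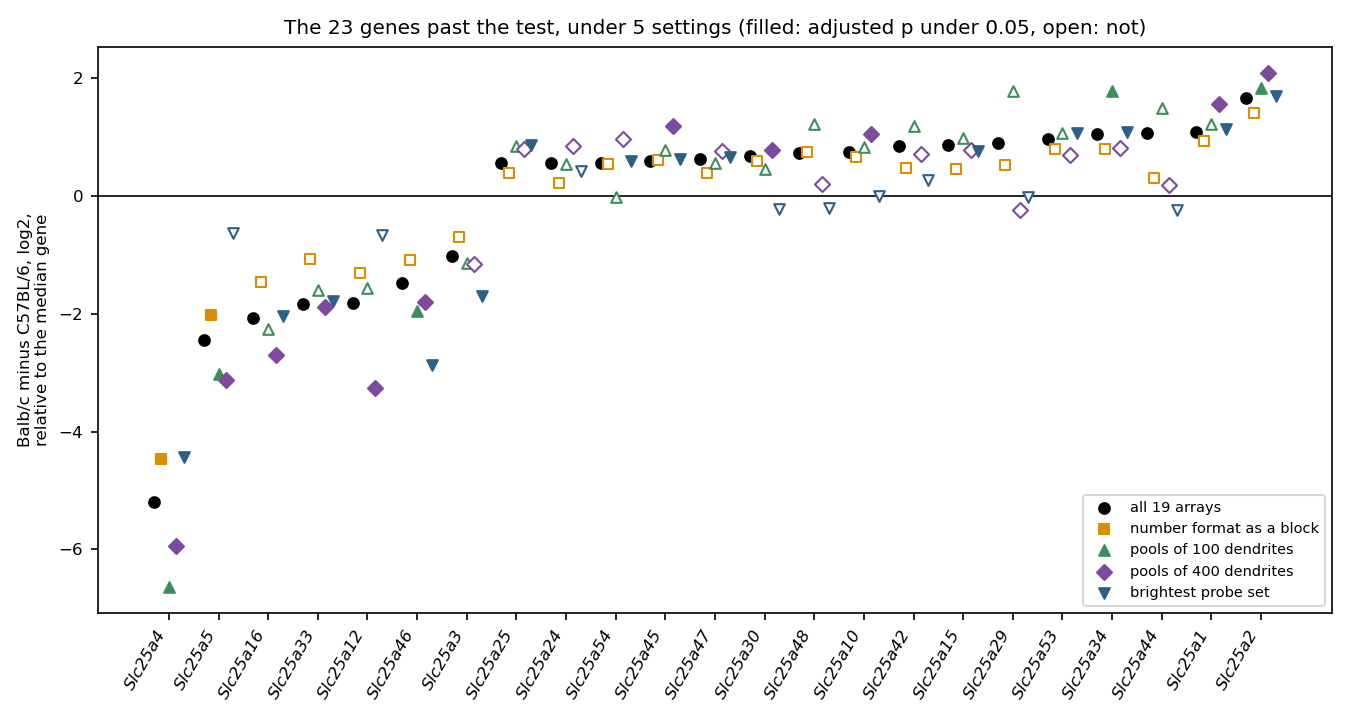
Strain difference (Balb/c minus C57BL/6, log2, relative to the median gene) of the 23 called carriers with all 19 arrays, with the number format as a block, in pools of 100 or 400 dendrites, and from the brightest probe set of each gene; filled symbols passed an adjusted p of 0.05. Slc25a4 is filled under all 5 settings, and Slc25a29, Slc25a30, Slc25a44 and Slc25a48 lie below 0 with the brightest probe set.

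No carrier passed a test of the number of dendrites in a pool. With strain as a covariate, 0 carriers passed for a slope per doubling of the pool, and so did 0% of all genes; 3 carriers had an unadjusted p under 0.05, against 850 of all genes. For a slope that differs between strains 0 passed (0% of all genes), with 1 carrier and 690 genes at an unadjusted p under 0.05. For C57BL/6 pools of 400 against pools of 100, 0 passed (0% of all genes), with 1 carrier and 1053 genes at that level.

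Slc25a20, which carries acylcarnitines to fatty acid oxidation, had the smallest p among the carriers for the slope and for C57BL/6 pools of 400 against 100. For the slope that differs between strains it was Slc25a29 (unadjusted p = 0.0396). In C57BL/6 Slc25a20 stood at 5.36, 5.35, 5.13 and 5.10 in pools of 100, at 6.04, 6.29, 6.52, 6.01 and 6.12 in pools of 200, and at 6.29, 6.11, 6.11, 6.04 and 6.23 in pools of 400. The pools of 100 lay below every larger C57BL/6 pool, and those of 200 and 400 overlapped. The Slc25a20 difference between pools of 400 and 100 was 0.92 (SE 0.22, limma unadjusted p = 0.000576, adjusted p = 0.321). Its slope over both strains was 0.37 per doubling (SE 0.12, adjusted p = 0.87). In Balb/c the values were 5.90 and 6.53 in pools of 100, 6.41 in the pool of 200, and 7.08 and 6.16 in pools of 400. The next slopes were those of Slc25a22 (0.45, SE 0.20, adjusted p = 0.959) and Slc25a53 (0.27, SE 0.12, adjusted p = 0.959).

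Neighbours of the carriers in mitochondria were counted from lists of related genes. The shares of all genes to set beside these counts are 11.4% lower and 21.1% higher. The outer membrane channels let metabolites reach the carriers. Of 3, Vdac2 (8.10 ± 2.48 in Balb/c, 11.47 ± 0.82 in C57BL/6; -3.59 relative to the median gene, adjusted p = 0.000815) and Vdac3 (7.57 ± 1.83 in Balb/c, 10.38 ± 0.73 in C57BL/6; -3.02, adjusted p = 0.000618) were lower, while Vdac1 gave -0.02 and did not pass. Of 4 enzymes of the malate-aspartate shuttle, Mdh2 was lower (8.86 ± 1.39 in Balb/c, 11.20 ± 0.57 in C57BL/6; -2.55, adjusted p = 0.000407), Got2 was higher (0.70, adjusted p = 0.0377), and Got1 and Mdh1 did not pass.

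Carriers reach the inner membrane through the TOM and TIM22 machinery. Of 13 genes of this machinery 3 were lower, 0 were higher and 10 did not pass. The lower ones were Timm8b, a chaperone between the membranes (-2.84, adjusted p = 6.15e-05), Tomm20, an import receptor (-2.09, adjusted p = 0.0012), and Timm10b (-1.12, adjusted p = 0.00798). The translocase Timm22 itself gave -0.19 (adjusted p = 0.94). Of 6 genes for the pyruvate carrier and sideroflexins, Mpc1 was lower (-1.82, adjusted p = 0.0144) and 5 did not pass, with Sfxn5 the next smallest p (-1.07, adjusted p = 0.0981). Of 5 genes of calcium transport across the inner membrane, Letm1 was higher (0.90, adjusted p = 0.028), Micu2 came next (0.45, adjusted p = 0.0552), and 4 did not pass. Of 4 family members under other symbols, Ucp1, the uncoupling protein of brown fat, was higher (1.01, adjusted p = 0.00292) and 3 did not pass, among them Mtch2 (-0.67, adjusted p = 0.108).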

How the data were processed

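The 19 arrays measured RNA of dendrite pools from Balb/c (n = 5) and C57BL/6 (n = 14) neurons. Per probe set, the authors deposited log2 expression values, made from the upper decile of a set's probes with RMA, to which the submitters' processing notes give version 2.0. That the log has base 2 was inferred from the range of values. The methods also name median centring and range scaling, which the values do not show, so both were tried as alternatives. Of 45101 probe sets 64 were controls, 34945 had 1 symbol, 932 had several and 9160 had none; 99.4% of those with 1 symbol matched RefSeq. A probe set shared by Slc25a37 and another symbol was left out. Precision is limited by the number of arrays.

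Strain, pool size (log2 of dendrites, with strain as a covariate), their interaction and C57BL/6 pools of 400 against 100 were tested with limma 3.58.1 in R 4.3.3 (lmFit, eBayes) over all genes, with no filter on dim genes, and Benjamini-Hochberg adjusted. Recovery was tried on simulated data with 18193 genes and the C57BL/6 spread in both strains. For the strain comparison, 31% of genes changed by 1 and 82% of those changed by 2 log2 units were recovered. For C57BL/6 pools of 400 against 100 it was 3% and 63%. For the slope and the interaction the seeded changes were 1 and 2 log2 units per doubling of the pool, so larger between pools of 100 and 400. There 83% and 100% were recovered for the slope, and 23% and 81% for the interaction. Named by rule were up to 12 called carriers each way with the largest difference, and 10 chosen by function. The first rule took all 7 lower carriers and 12 higher ones. Every Balb/c value, with the lowest, median and highest C57BL/6 value, is given for Slc25a4, Slc25a5, Slc25a31, Slc25a3 and the 4 largest calls each way. Values of Slc25a12, Slc25a30, Slc25a46 and Slc25a20, and of further carriers, were added after they were seen. The carriers and lists were chosen with earlier results of these data known. Alternatives changed the scaling, the probe set rule, filters, covariates, arrays, variance model and test. Replicate numbers did not pair the pools.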

Additional observations from a re-analysis of the deposited data

Results flagged for a closer look

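A Dixon test of the highest and lowest pool was run in 116 groups of 4 or 5 pools over the 29 carriers named by rule, and 9 pools stood apart; chance gives about 1 in 20. In Balb/c, Slc25a46 (9.20, others 7.58 to 7.85) and Slc25a28 (8.75, others 6.24 to 6.50) were high in pool 200-1, and Slc25a13 was low in 100-1 (5.52, others 6.56 to 6.97). In C57BL/6 pools of 100, Slc25a29 was high in 100-2 (9.33, others 7.70 to 7.96), Slc25a22 was low in 100-2 (6.33, others 7.22 to 7.26), and Slc25a48 was low in 100-3 (5.06, others 5.89 to 6.04). In C57BL/6 pools of 400, Slc25a53 was high in 400-1 (7.82, others 6.25 to 6.55), Slc25a28 was low in 400-2 (6.99, others 7.48 to 7.61), and Slc25a5 was low in 400-4 (9.20, others 9.62 to 9.67).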

How the results depend on the processing

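Counts of carriers lower and higher were 7 and 16 (2073 and 3837 of 18193 genes). Leaving out 1 array gave 6 to 9 lower and 10 to 16 higher, with 10 higher without Balb/c 400-1, against 13.9% of all genes. The brightest probe set gave 7 lower and 9 higher of 44, against 14.1% and 20.6% of all genes. With it 45.5% of carriers and 45.1% of all genes had an unadjusted p under 0.05. Genes above the median gene mean (27 carriers left) gave 6 lower and 10 higher, against 18.27% and 19.05% of those genes. Genes above the 95th percentile of 39 olfactory receptor genes (2 carriers left) gave 1 lower and 0 higher, against 26.6% and 8.86%. The number format as a block gave 2 lower and 0 higher (232 and 118 genes), and the long format alone 0 and 0 (0 genes in all). Pools of 100 gave 4 lower and 2 higher (1027 and 1058 genes), and pools of 400 gave 6 lower and 5 higher (1336 and 1757 genes). Without Balb/c 100-2 and 400-1 there were 5 lower and 4 higher (947 and 1115 genes). Quantile normalization gave 8 lower and 12 higher (2522 and 2762 genes), as did centring and range scaling (2651 and 2590 genes). The methods' t-test gave 7 and 14 (1934 and 3760 genes). The slope, the interaction and the C57BL/6 pool comparison called 0 carriers under all alternatives run.

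Pools with the same replicate number did not deviate together (correlations of deviations -0.19 to 0.07 over 5 shared numbers). The replicate block gave 0 lower and 0 higher carriers over the 10 arrays with shared numbers, and 0 genes in all, with 14 carriers and 3331 genes at an unadjusted p under 0.05.

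Over the called carriers named by rule, leaving out 1 array kept direction and call for 346 values, lost the call for 15 and turned 0, and the other settings kept 212, lost the call for 101 and turned 5. Directions relative to the median gene turned as follows. With the brightest probe set Slc25a44 (-0.23), Slc25a29 (-0.012), Slc25a48 (-0.21) and Slc25a30 (-0.22) turned negative and Slc25a18 gave 0.0204. In pools of 400 Slc25a29 gave -0.23, Slc25a18 0.59, Slc25a27 0.0218 and Slc25a37 0.16. The uncalled Slc25a31, Slc25a27 and Slc25a37 gave -0.13, 0.11 and 0.28 with the format block and within the long format, and -0.16, 0.0273 and 0.24 with the replicate block. Without Balb/c 100-2 and 400-1 Slc25a18 gave 0.0491 and Slc25a22 -0.56. Leaving out 1 array moved Slc25a18 between -0.14 and 0.16, Slc25a22 between -0.38 and 0.31, Slc25a31 between -0.0703 and 0.33 and Slc25a37 between -0.38 and 0.0764. Outside the carriers named by rule, the called Slc25a54 gave -0.014 in pools of 100. The cause was not tested.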

Other observations

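The carriers that fell and those that rose can be followed array by array, as medians of their deviation from the C57BL/6 mean. The 7 that fell had medians of -1.54, -2.51, -0.95, -2.34 and -1.90 in Balb/c pools 100-1, 100-2, 200-1, 400-1 and 400-2. C57BL/6 200-1 and 400-1 stood at -0.96 and -0.56, and the other 12 C57BL/6 pools lay between -0.34 and 0.59. The 16 that rose had medians of 0.87, 1.05, 0.84, 1.35 and 0.78 in the Balb/c pools, with 0.56 and 0.64 in C57BL/6 200-1 and 400-1 and -0.39 to 0.08 in the other 12. Since these carriers were chosen by the strain test, these are descriptions. Without Balb/c 200-1, C57BL/6 200-1 and C57BL/6 400-1, 9 carriers were lower and 17 higher, against 2792 and 5134 of the 18193 genes. These 3 arrays were picked for lying between the strains, so more calls can follow from the choice alone, and the counts are descriptions. Both 200-1 pools among these 3 arrays correlated more with the other strain's arrays than with their own. For C57BL/6 400-1 the mean correlation was 0.779 to its own strain and 0.722 to Balb/c.

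Probe sets of the same carrier also parted for genes with no call on their median. Slc25a36, a pyrimidine nucleotide carrier, had 1 of 3 probe sets lower, with a range of -2.04 to 0.25 relative to the median probe set. Slc25a51, a NAD carrier in humans, had 1 of 3 higher, with a range of -1.003 to 0.77. Slc25a27 had 1 of 4 higher, with a range of -1.15 to 0.61. These carriers were picked after their values were seen.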
